A study of Heterocephalus glaber and Mus musculus with 9 samples.

Results

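Nkg7, Gzma, Ccl5, Prf1, Eomes and Tbx21 are genes of cytotoxic lymphocytes, the natural killer cells and killer T cells that destroy infected or malignant cells. They were chosen by symbol, ignoring case, from the table of spleen gene expression, and all 6 of the 6 symbols had a row among the 12946 genes listed. Their expression was compared in the spleens of 3 mice, 3 naked mole-rats with small spleens (ssNM-R) and 3 naked mole-rats with large spleens (lsNM-R), which the study sorted by spleen mass relative to body mass to learn how the spleen of this long-lived rodent is built. The mice were healthy C57Bl/6N males aged 2 months, kept at about 22 °C. The naked mole-rats (NM-Rs) were healthy, untreated animals that did not breed, kept at 29 °C. The ssNM-Rs were the males 2, 3 and 6, aged 30, 26 and 23 months, and the lsNM-Rs were animals 1, 4 and 5, aged 24, 29 and 23 months, of which animal 4 was female and the others male. No animal carried a transgene or a mutation by the labels. Species, age and housing changed together, and each species was aligned to its own genome, so a difference between mouse and NM-R spleens cannot be told apart from age, housing, gene annotation or transcript length.

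A cytotoxic lymphocyte kills by releasing granules onto its target. Perforin opens the target's membrane, granzymes enter and cut proteins whose loss ends in cell death, and the pair of related T-box transcription factors T-bet and Eomes switch on this equipment as natural killer cells and CD8+ T cells mature. In the spleen of laboratory mice such cells lie mostly in the red pulp and around the T cell zone, and interleukin 15 keeps them alive. Whole spleens were measured, so fewer cytotoxic cells and less RNA per cell cannot be told apart in any result given here.

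In the mouse genome build mm9 the 6 genes lie on 5 chromosomes. Nkg7 (granule membrane protein) is at chr7:50692443-50693616 on the plus strand, Gzma (granzyme A) at chr13:113884033-113891187 on the minus strand, and Prf1 (perforin) at chr10:60760584-60767011 on the plus strand. Ccl5 (the chemokine RANTES) is at chr11:83339280-83344020 on the minus strand, Tbx21 (T-bet) is further along the same chromosome at chr11:96959385-96976645 on the minus strand, and Eomes is at chr9:118387330-118395250 on the plus strand. All 6 genes were lower in NM-Rs, as were 38.8% of all genes, and they fell by differing amounts. The 250 bases before each GENCODE vM1 gene start were read from mm9 and searched on both strands. The motifs were a T-box motif (TCACACC), a Runx motif (TGTGGT) and a STAT motif (TTCNNNGAA), the recognition letters of factor families known in these cells. The promoters of 4 genes are shown 5′ to 3′ along each gene's own strand, with any match in capitals: the 3 with a match, and that of Ccl5, the gene with the lowest fold change, which had none.
Nkg7, chr7:50692193-50692442, plus strand: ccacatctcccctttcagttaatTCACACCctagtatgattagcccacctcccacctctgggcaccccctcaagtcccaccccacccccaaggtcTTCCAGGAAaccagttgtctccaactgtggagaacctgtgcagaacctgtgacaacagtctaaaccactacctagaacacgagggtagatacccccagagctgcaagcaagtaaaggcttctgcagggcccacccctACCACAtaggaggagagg
Gzma, chr13:113891188-113891437, minus strand: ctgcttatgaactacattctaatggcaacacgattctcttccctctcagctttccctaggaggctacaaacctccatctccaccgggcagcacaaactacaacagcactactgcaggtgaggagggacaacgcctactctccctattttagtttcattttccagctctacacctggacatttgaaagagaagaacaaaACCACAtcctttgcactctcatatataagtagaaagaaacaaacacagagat
Prf1, chr10:60760334-60760583, plus strand: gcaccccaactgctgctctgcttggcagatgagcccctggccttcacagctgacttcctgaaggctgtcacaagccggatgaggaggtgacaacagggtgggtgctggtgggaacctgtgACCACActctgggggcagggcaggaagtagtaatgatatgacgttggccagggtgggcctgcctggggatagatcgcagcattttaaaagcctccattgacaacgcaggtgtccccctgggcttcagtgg
Ccl5, chr11:83344021-83344270, minus strand: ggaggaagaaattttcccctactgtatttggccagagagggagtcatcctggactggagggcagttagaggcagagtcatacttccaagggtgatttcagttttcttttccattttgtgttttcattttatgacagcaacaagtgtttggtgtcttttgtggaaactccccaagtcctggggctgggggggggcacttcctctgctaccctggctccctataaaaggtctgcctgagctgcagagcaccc
Only the Nkg7 window held the T-box letters, from base -227 to -221 counted from the gene start, and it also held the STAT letters from -155 to -147. The Runx letters were found on the reverse strand, so that the sequences shown read ACCACA, in Nkg7 (-18 to -13), Gzma (-52 to -47) and Prf1 (-130 to -125). Of 22233 mouse promoters of the same length, 3.19% held the T-box letters, 12.7% the Runx letters and 6.84% the STAT letters, against 1, 3 and 1 of the 6 genes. None of the 3 motifs shared a base with another in these windows, and the windows of Ccl5, Eomes and Tbx21 held none of them. These matches describe letters in the mouse genome and are no evidence of binding; the NM-R promoters were not analysed here.

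Values are the authors' normalized counts, that is reads per gene divided by a factor for each library, with no correction for gene length. Each library held between 7815326 (ssNM-R 3) and 18387599 (lsNM-R 5) reads counted to the listed genes, recovered from the steps between values. Over pairs of libraries of 1 group, the chi-square per gene was 6.2 to 43.2, where 1 is sampling noise, so no library was a copy of another. The 3 spleens of a group came from different animals. In the mice the 6 genes rested on 254 to 1943 reads per library, and in the NM-Rs on 9 to 206, so the NM-R values carry more counting error.

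All 6 genes were lower in every NM-R spleen than in every mouse spleen, and the mean fell between 4.06-fold for Prf1 and 61.7-fold for Ccl5. The killing proteins Gzma and Prf1, the granule protein Nkg7, the chemokine Ccl5 and both T-box factors shared this direction in ssNM-Rs and in lsNM-Rs. All 6 passed the test as lower in each comparison with mice, by limma on log2(normalized count + 1) with p-values adjusted over all 12946 genes. In this pair of species most genes differed: 38.8% of all genes were lower and 39.7% higher in NM-Rs, 37.5% lower and 38.0% higher in ssNM-Rs alone, and 37.0% lower and 38.1% higher in lsNM-Rs alone, and 36.2% had every NM-R spleen below every mouse spleen. The call is read against this background, and the size of the change is given beside it: 13.4% of all genes had a log2 fold change as low as that of Prf1, the least changed of the 6 over both cohorts, while the median over all genes was 0.01.

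**Figure D1:**
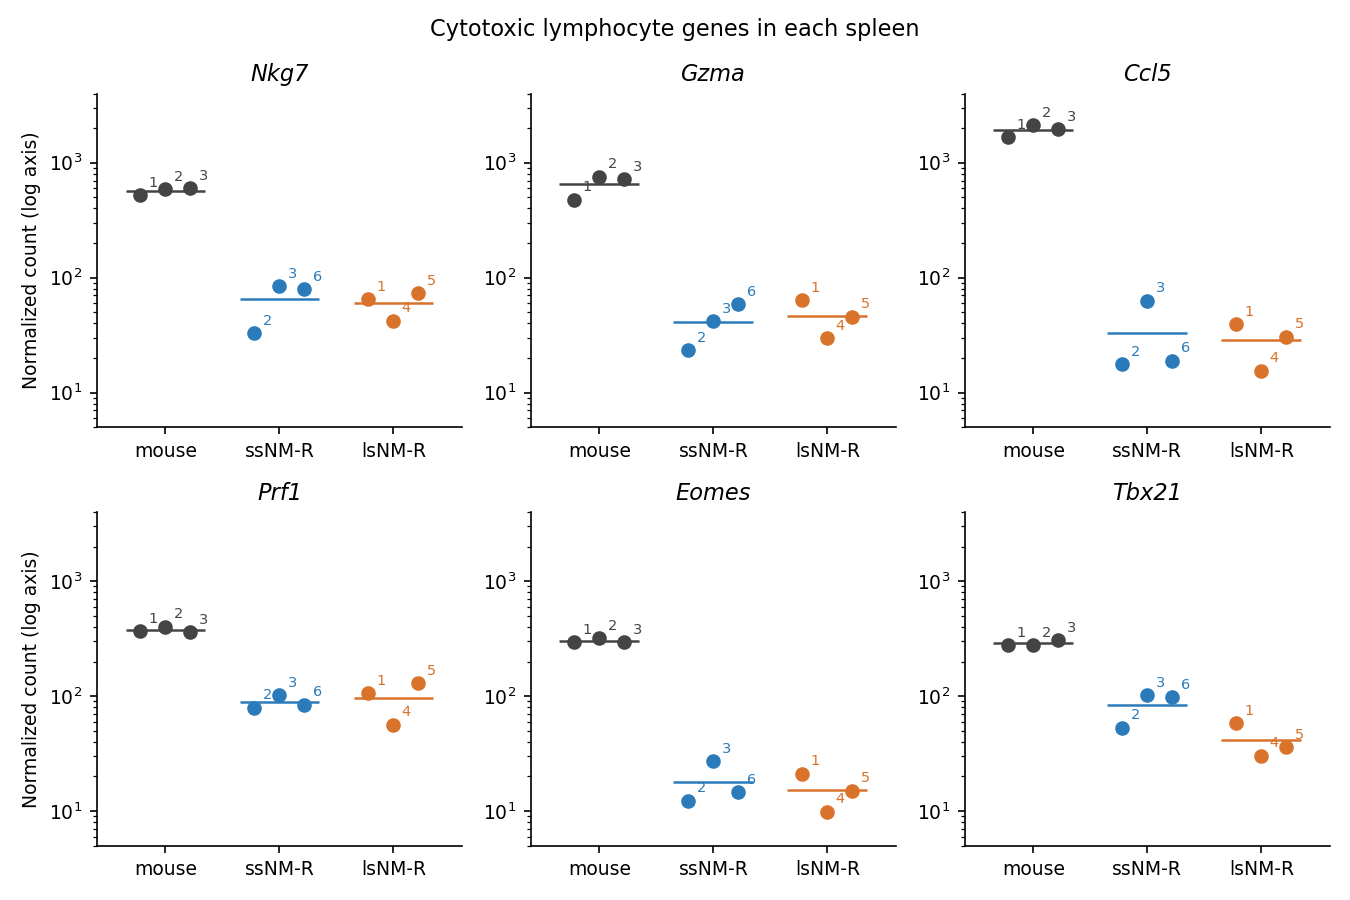
Normalized count (log axis) of each of the 6 genes in each spleen, with 1 point per animal labelled by its number and a line at the mean of its group (n = 3). In every panel the 6 NM-R points lie below the 3 mouse points, and the ssNM-R and lsNM-R points overlap.

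Ccl5 encodes a chemokine that cytotoxic T cells and natural killer cells store and release, and which draws leukocytes through receptors such as Ccr3. Its normalized count was 1663, 2112 and 1953 in the mice, 17.8, 63.1 and 19.0 in ssNM-Rs 2, 3 and 6, and 39.5, 15.5 and 30.7 in lsNM-Rs 1, 4 and 5. The lowest mouse was 26.4-fold above the highest NM-R, ssNM-R 3, and that animal stood 4.07-fold above lsNM-R 4, the lowest NM-R. The mean was 1909 ± 227.8 over the 3 mice (SD) against 30.9 ± 18.2 over the 6 NM-Rs (SD), a log2 fold change of -6.07 (SE 0.41, 95% interval -6.99 to -5.16, limma adjusted p = 4.33e-07). Only 1.48% of all genes had a lower log2 fold change than Ccl5.

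Gzma encodes granzyme A, a protease of the killing granule. The mice gave 476.6, 757.6 and 716.2, against 23.2, 42.0 and 58.8 in ssNM-Rs 2, 3 and 6 and 63.6, 29.6 and 45.8 in lsNM-Rs 1, 4 and 5. Mouse 1 lay below the other mice and was still 7.50-fold above the highest NM-R, lsNM-R 1. The mean fell from 650.2 ± 151.7 (SD, n = 3) to 43.8 ± 15.8 (SD, n = 6), which is 14.8-fold, with a log2 fold change of -3.91 (SE 0.32, limma adjusted p = 1.81e-06). Granzymes form a family of similar genes, and no other row of the table held the same NM-R reads as Gzma or as any of the other 5 genes.

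Prf1 encodes perforin, the protein that opens the target membrane and without which granzymes do not reach the target's interior. It was measured at 367.3, 403.3 and 359.7 in the mice, at 79.3, 102.1 and 84.0 in ssNM-Rs 2, 3 and 6, and at 105.9, 56.4 and 129.2 in lsNM-Rs 1, 4 and 5. The groups of the 2 species did not overlap, with lsNM-R 5 the highest NM-R at a level 2.79-fold below the lowest mouse. Over both cohorts perforin had the smallest change of the 6 on the log2 scale, while in ssNM-Rs alone Tbx21 had a smaller one (-1.81 against -2.08 for Prf1). Its mean of 376.7 ± 23.3 in the 3 mice (SD) stood against 92.8 ± 25.2 in the 6 NM-Rs (SD), with a log2 fold change of -2.05 (SE 0.24, 95% interval -2.58 to -1.53, limma adjusted p = 2.10e-05).

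Nkg7 encodes a small membrane protein of cytotoxic granules that takes part in their release. Its values were 519.8, 589.1 and 598.8 in the mice, 32.8, 84.1 and 79.0 in ssNM-Rs 2, 3 and 6, and 65.0, 42.3 and 73.4 in lsNM-Rs 1, 4 and 5. ssNM-R 2 was the lowest spleen and ssNM-R 3 the highest among NM-Rs, 2.56-fold apart, and the lowest mouse was 6.18-fold above the latter. The mean fell 9.07-fold, from 569.2 ± 43.1 (SD, n = 3) to 62.8 ± 20.7 (SD, n = 6), with a log2 fold change of -3.23 (SE 0.30, limma adjusted p = 4.16e-06).

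Eomes encodes eomesodermin, the T-box factor of mature natural killer cells and memory CD8+ T cells. The mice gave 294.0, 319.6 and 295.7, ssNM-Rs 2, 3 and 6 gave 12.3, 27.0 and 14.5, and lsNM-Rs 1, 4 and 5 gave 21.2, 9.87 and 15.0. The NM-R values rested on 9 to 24 reads each, the fewest among the 6 genes, and the lowest mouse was 10.9-fold above the highest NM-R. The mean fell 18.2-fold, from 303.1 ± 14.3 (SD, n = 3) to 16.7 ± 6.33 (SD, n = 6), and the log2 fold change was -4.18 (SE 0.29, limma adjusted p = 5.94e-07).

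Tbx21 encodes T-bet, the T-box factor that Eomes resembles and that also directs type 1 helper T cells. It was measured at 279.0, 276.1 and 307.3 in the mice, at 53.3, 102.1 and 97.3 in ssNM-Rs 2, 3 and 6, and at 57.9, 30.3 and 35.7 in lsNM-Rs 1, 4 and 5. The highest NM-R, ssNM-R 3, was 2.70-fold below the lowest mouse. Over all 6 NM-Rs the mean was 62.8 ± 30.5 (SD) against 287.4 ± 17.2 in the mice (SD, n = 3), a log2 fold change of -2.32 (SE 0.26, limma adjusted p = 1.70e-05). The interval of this change, -2.90 to -1.74, did not meet that of Eomes, -4.84 to -3.52.

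**Figure D2:**
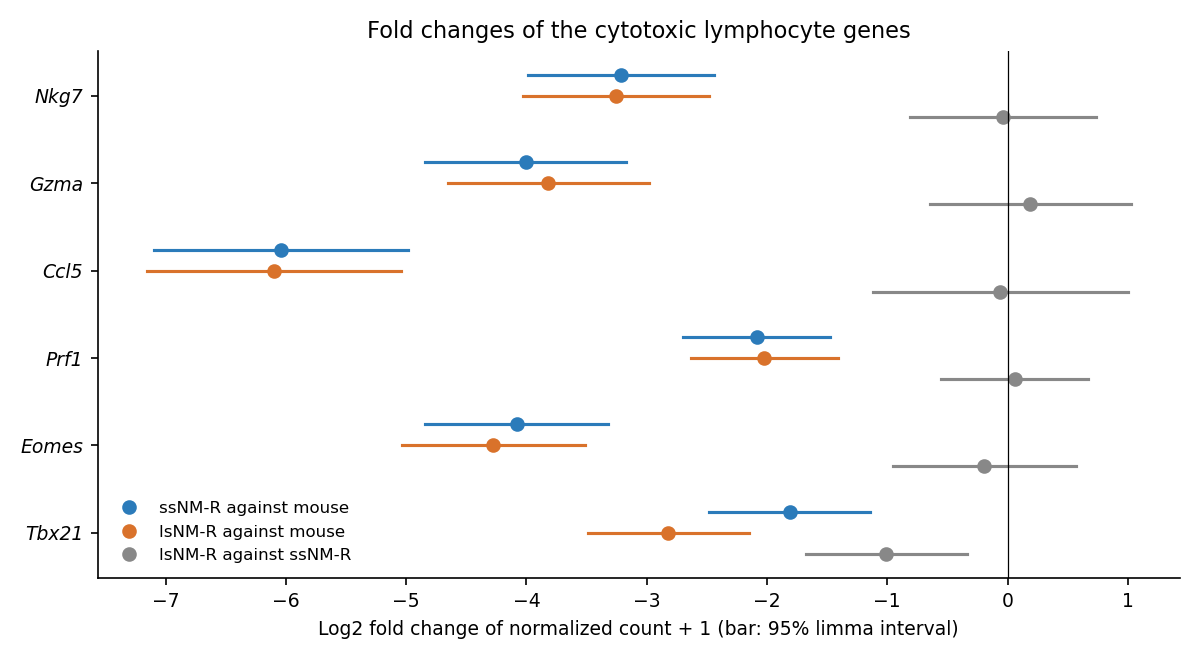
Log2 fold change (x axis) of each gene in ssNM-Rs against mice, lsNM-Rs against mice and lsNM-Rs against ssNM-Rs, with dots for the limma estimates and bars for their 95% intervals. The comparisons with mice lie left of 0 for all 6 genes, and among the comparisons of the NM-R cohorts the interval of Tbx21 alone, -1.68 to -0.34, leaves out 0 before adjustment.

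The 6 genes did not fall by the same amount. The difference of their log2 values within each spleen was compared between species for all 15 pairs by a 2-sided exact permutation test over the 84 arrangements of the 9 spleens, with 0.0119 the smallest p possible, and p-values were adjusted over the 15 pairs. Of these, 12 passed at adjusted p under 0.05 and 3 did not. The share of pairs of other genes that would pass was not computed. Over all genes, 38.8% were lower and 39.7% higher in NM-Rs, so a count of passing pairs is not particular to these genes. Ccl5 fell by 4.02 more than Prf1 on the log2 scale (adjusted p = 0.0198, exact permutation), the difference of the pair going from 2.33 ± 0.139 in the 3 mice (SD) to -1.68 ± 0.557 in the 6 NM-Rs (SD). Eomes fell by 1.86 more than Tbx21 (adjusted p = 0.0198, exact permutation), from a difference of 0.08 ± 0.13 in mice to -1.78 ± 0.53 in NM-Rs. Gzma fell by 1.86 more than Prf1 (adjusted p = 0.0198, exact permutation) and Eomes fell by 2.12 more than Prf1 (adjusted p = 0.0198, exact permutation). The 3 pairs that did not pass were Nkg7 and Tbx21 (difference -0.92, adjusted p = 0.0824), Gzma and Eomes (0.26, adjusted p = 0.485) and Prf1 and Tbx21 (0.26, adjusted p = 0.583), each by the exact permutation test. Because the 2 species were counted on different transcript models, these differences of log2 values include any difference in transcript length.

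Between genes, levels can be compared only per length. In mice, divided by the bases of all GENCODE vM1 exons of the gene, Ccl5 was highest at 1989 ± 237.3 normalized counts per kilobase (SD, n = 3), followed by Gzma at 692 ± 161.6 and Nkg7 at 648 ± 49.1. The spleens of Gzma (507.6 to 806.8) and Nkg7 (592 to 682) overlapped, so their order was not settled. Prf1 followed at 183 ± 11.3, Tbx21 at 115.5 ± 6.92 and Eomes at 73.0 ± 3.44 normalized counts per kilobase (SD, n = 3 each), and the spleens of these neighbours did not overlap. NM-R exon lengths were not used here, so no such order is given for the NM-Rs.

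No difference between the NM-R cohorts was detected in these genes. No gene of the 6 passed the test between lsNM-Rs and ssNM-Rs, and the 2 cohorts overlapped in all 6, while 13.1% of all genes had cohorts that did not overlap. Over the whole table limma called 0 genes in this comparison (0.0%), with 1138 genes (8.79%) at an unadjusted p under 0.05, edgeR called 0 and DESeq2 called 54 (0.417%), none of them among the 6. The intervals were wide: the log2 fold change of lsNM-Rs against ssNM-Rs was -0.04 for Nkg7 (95% interval -0.81 to 0.73), 0.19 for Gzma (-0.64 to 1.02), -0.06 for Ccl5 (-1.11 to 1.00), 0.06 for Prf1 (-0.55 to 0.67) and -0.19 for Eomes (-0.95 to 0.57), so differences within these intervals were not detectable with 3 spleens a cohort.

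Tbx21 came nearest to a cohort difference. Its mean was 84.3 ± 26.9 over the 3 ssNM-Rs and 41.3 ± 14.6 over the 3 lsNM-Rs (SD). The log2 fold change was -1.01 (SE 0.30), with a limma p of 0.00753 before adjustment and an adjusted p of 0.442. ssNM-R 2, at 53.3, lay below lsNM-R 1, at 57.9. DESeq2 on recovered reads gave -1.08 (adjusted p = 0.0758) and edgeR's quasi-likelihood test -1.09 (adjusted p = 0.485).

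**Figure D3:**
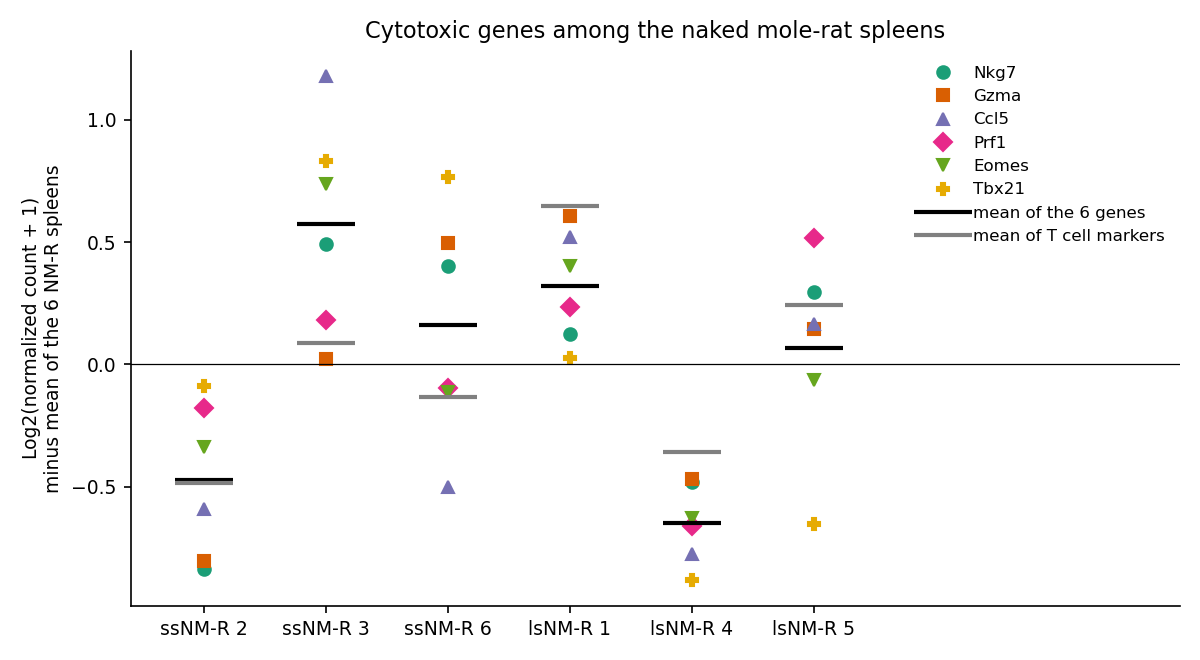
Log2(normalized count + 1) of each gene in each of the 6 NM-R spleens minus its mean over the 6 (y axis), with 1 symbol per gene, a black line at the mean of the 6 genes and a grey line at the mean of the listed T cell markers. lsNM-R 4 and ssNM-R 2 have the lowest black lines, at -0.65 and -0.47, and ssNM-R 3 has the highest, at 0.57.

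Among the NM-R spleens, the order of the animals did not separate the cohorts for any of the 6 genes. lsNM-R 4, the female of 29 months, was lowest for Ccl5, Prf1, Eomes and Tbx21, and ssNM-R 2, a male of 30 months, was lowest for Nkg7 and Gzma and second lowest for Ccl5, Prf1 and Eomes. ssNM-R 3 was highest for Nkg7, Ccl5, Eomes and Tbx21, lsNM-R 1 for Gzma and lsNM-R 5 for Prf1. Averaged over the 6 genes, the log2 values relative to the NM-R mean were -0.47, 0.57 and 0.16 in ssNM-Rs 2, 3 and 6 and 0.32, -0.65 and 0.07 in lsNM-Rs 1, 4 and 5. For the 10 listed T cell markers the same averages were -0.49, 0.09 and -0.14 in the ssNM-Rs and 0.65, -0.36 and 0.24 in the lsNM-Rs, so ssNM-R 2 and lsNM-R 4 were the lowest for both. Erythroid marker sums were highest in these same spleens, at 147600 in ssNM-R 2 and 136200 in lsNM-R 4 against 95830 to 112800 in the other NM-Rs, and the part of cell composition in the order of the spleens was not tested. The spread of the 6 NM-Rs was 2.15 (Eomes) to 18.7 (Tbx21) times the variance expected from counting alone. In the mice this ratio was 0.63 for Eomes and 0.98 for Tbx21, and 26.3 and 34.6 for Ccl5 and Gzma, which were both lowest in mouse 1.

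Markers of the other cells of the spleen moved as well. All 10 listed B cell markers were lower in NM-Rs (median log2 fold change -3.71), all 10 listed T cell markers were lower (median -1.79), and 6 of 6 erythroid markers, 6 of 7 granulocyte markers and 5 of 5 mast cell and basophil markers were higher (medians 1.84, 1.39 and 2.07). Summed erythroid markers ranged from 21610 to 59200 normalized counts in mice and from 95830 to 147600 in NM-Rs, and summed T cell markers from 13890 to 14930 and from 3750 to 7452. Of plasmacytoid dendritic cell markers 3 of 4 were lower, of megakaryocyte and platelet markers 4 of 6 were higher and 2 lower, and of helper innate lymphoid cell markers 2 of 4 were lower and 1 higher. The part of these shifts in the fall of the 6 genes was not tested.

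Relative to Cd3e, the invariant T cell receptor chain gene, the 6 genes were still lower. Cd3e itself was at 967 ± 88.5 over the 3 mice and 640.2 ± 209 over the 6 NM-Rs (SD), a log2 fold change of -0.65 (limma adjusted p = 0.0179, or 0.0757 without mouse 3), with lsNM-R 1, at 968.9, within the range of the mice. Taken as log2 level minus that of Cd3e in the same spleen, the change between species was -5.42 for Ccl5, -3.52 for Eomes, -3.26 for Gzma, -2.58 for Nkg7 and -1.40 for Prf1 (adjusted p = 0.0143 each) and -1.66 for Tbx21 (adjusted p = 0.0238), by exact permutation tests adjusted over the 6 genes. The spleens of the 2 species did not overlap in any of the 6. The share of other genes that would differ in this way relative to Cd3e was not computed.

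**Figure D4:**
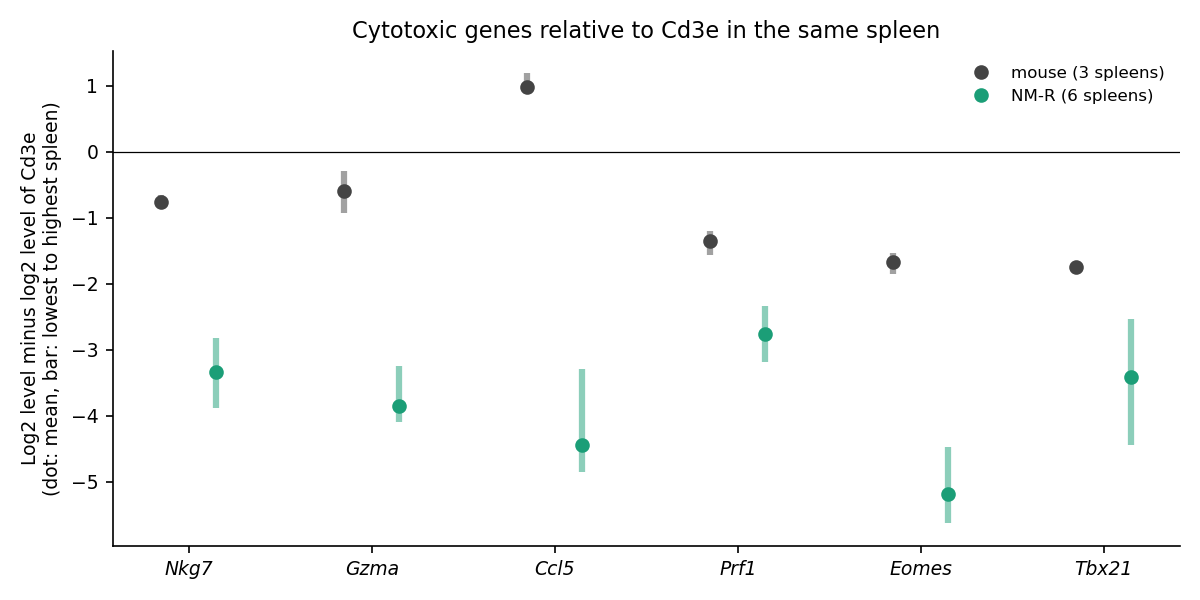
Log2 level of each gene minus the log2 level of Cd3e in the same spleen (y axis), with dots for the mean and bars from the lowest to the highest spleen, for 3 mice and 6 NM-Rs. The bars of the 2 species are apart for each gene, by the most for Ccl5 (0.87 to 1.19 in mice, -4.86 to -3.29 in NM-Rs).

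The rest of the cytotoxic pathway was described from 8 lists. Of 134 genes in them 82 had a row, of which 58 were lower in NM-Rs than in mice, 11 higher and 13 did not pass (limma, adjusted p under 0.05), beside 38.8% lower and 39.7% higher over all genes. The median log2 fold change was -1.23 against 0.01 over all genes and -3.57 over the 6 genes. In ssNM-Rs alone 58 were lower and 11 higher, and in lsNM-Rs alone 57 and 11. Between the NM-R cohorts 0 of the 82 passed, and the 2 comparisons with mice share the same 3 mice.

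**Figure D5:**
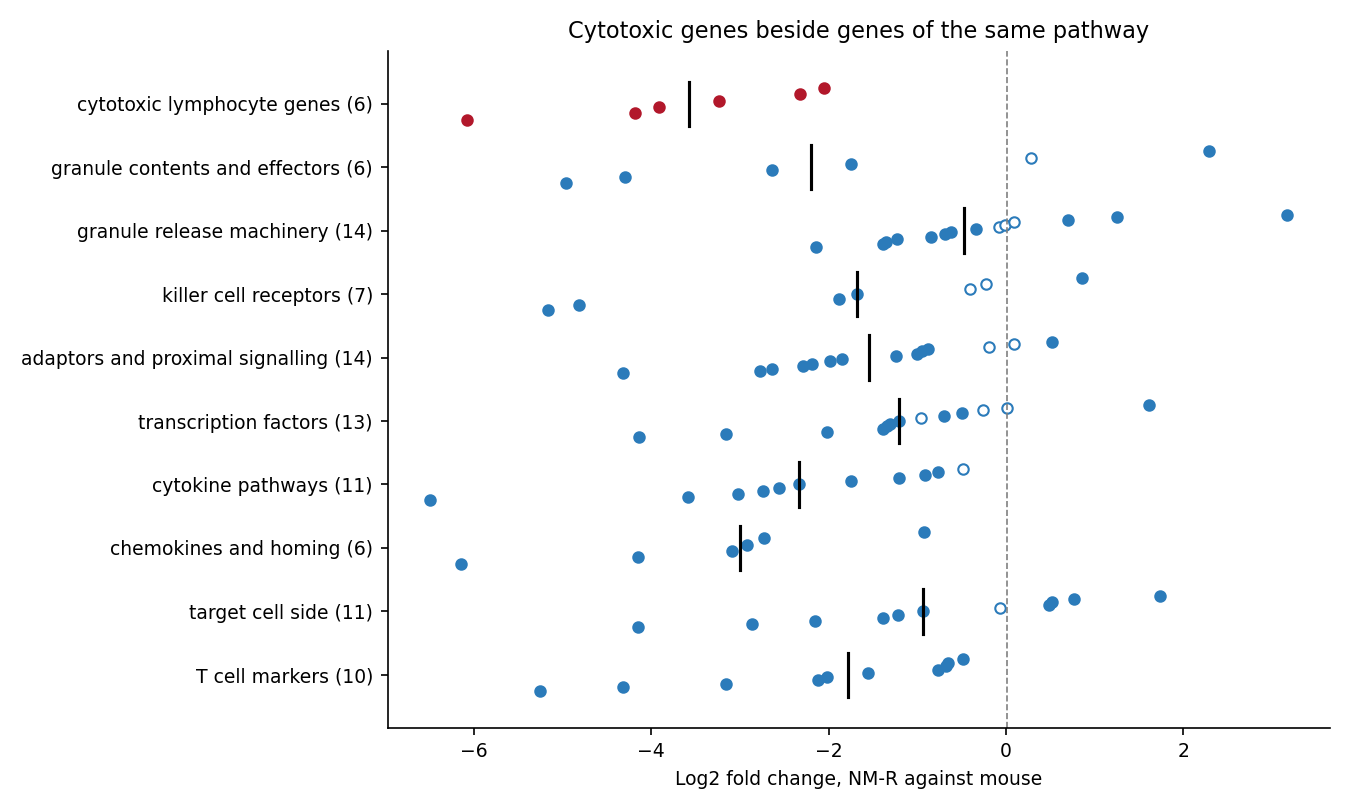
Log2 fold change of NM-R against mouse spleens (x axis) for the 6 genes (red) and the listed genes of 8 related lists and the T cell markers (blue), with 1 dot per gene, filled where the limma adjusted p was under 0.05, a bar at each list's median and a dashed line at the median of all genes. The granule release machinery, with a median of -0.48, has genes on both sides of 0, while every dot of the chemokine and homing list is left of 0.

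Among granule contents and effectors, 4 of the 6 listed genes were lower and 1 higher (median -2.19). Ctsw, cathepsin W of cytotoxic lymphocytes, fell from 732 ± 38.0 in mice to 25.4 ± 14.1 in NM-Rs, a change of -4.96 (limma adjusted p = 1.10e-06; here and below, mean ± SD with n = 3 and n = 6, then log2 fold change). Gzmk, granzyme K, fell from 48.3 ± 21.8 to 7.52 ± 4.46 (-2.63, adjusted p = 0.00139 by limma), and Ctsc, the cathepsin that activates granzymes, fell from 4555 ± 178.9 to 1371 ± 228.4 (-1.75). Ifng, the interferon that killer cells secrete, had 14 to 21 reads in each mouse and 0 reads in each of the 6 NM-Rs, which makes it at least 42.1-fold higher in mice against a floor of 3 reads over the 6 libraries together; 149 genes of the table had 0 reads in every NM-R, and the list's median is the same with Ifng at that bound. The death ligand Tnfsf10 (TRAIL) went the other way, from 290 ± 42.0 to 1476 ± 481.6 (2.29, limma adjusted p = 8.49e-06), and Srgn, the proteoglycan that packs granules, was at 3057 ± 159.4 and 3755 ± 682.1 (0.28, adjusted p = 0.0772 by limma, but 0.0488 without ssNM-R 3 and 0.0424 without lsNM-R 4). Srgn also passed with upper quartiles made equal (adjusted p = 0.0283 by limma). By cohort, it passed as higher in lsNM-Rs (0.42, adjusted p = 0.0305 by limma) but not in ssNM-Rs (0.14, adjusted p = 0.42 by limma). Gzmb, Gzmc, Gzmm, Serpinb9 and Fasl were not analysed here.

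The release machinery was divided. Of its 14 listed genes 8 were lower, 3 higher and 3 did not pass, with a median of -0.48. Coro1a, an actin regulator of the synapse, fell by 2.14 and Arl8b, a lysosome transport GTPase, by 1.38 on the log2 scale. The granule docking GTPase Rab27a rose from 677 ± 27.2 to 1611 ± 86.8 (1.25, limma adjusted p = 1.11e-07), the membrane fusion protein Stx11 rose by 0.70 (adjusted p = 0.00159 by limma), and the calcium sensor Syt7 rose from 20.2 ± 4.33 to 193.5 ± 56.1 (3.17). Of other genes whose loss impairs granule release, Lyst fell from 2604 to 1027 in mean (-1.36, limma adjusted p = 2.12e-05). Unc13d (-0.08, adjusted p = 0.506), Stxbp2 (-0.01, adjusted p = 0.917) and Ap3b1 (0.09, adjusted p = 0.282, but 0.0428 with upper quartiles made equal) did not pass the limma threshold. These proteins also serve granules of platelets, mast cells and neutrophils, whose markers were higher here, and their part in the values was not tested.

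Of 24 killer cell receptor genes only 7 were analysed here, and 4 of these were lower and 1 higher (median -1.67). The inhibitory receptor Tigit fell from 101.7 ± 25.7 to 2.40 ± 2.38 (-5.16, limma adjusted p = 1.45e-06), the activating receptor Crtam from 106.3 ± 9.74 to 3.78 ± 3.08 (-4.82), and Klrg1, a lectin receptor of mature killer cells, from 74.8 ± 23.9 to 23.0 ± 7.49 (-1.67, adjusted p = 7.35e-04 by limma). Cd244 (2B4) rose from 558.0 ± 43.6 to 1083 ± 399.8 (0.86, limma adjusted p = 0.0156), a call lost without mouse 2 (adjusted p = 0.0579) or without mouse 3 (adjusted p = 0.0502). In lsNM-Rs alone Cd244 did not pass (0.52, adjusted p = 0.161 by limma), and lsNM-R 1, at 477.4, lay below every mouse (517.4 to 604.1). The defining natural killer genes Ncr1 and those of the Klrb1, Klrc, Klrd1 and Klrk1 loci were not analysed here, so natural killer cells and killer T cells could not be separated by their receptors.

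Of 14 listed adaptors and proximal signalling genes 11 were lower and 1 higher (median -1.54). Sh2d1a, the SLAM receptor adaptor SAP, fell from 132.7 ± 18.1 to 6.14 ± 2.65 (-4.31, limma adjusted p = 2.04e-06), and Cd247, the zeta chain shared by the T cell receptor and Fc receptors of natural killer cells, from 881.0 ± 35.6 to 137 ± 57.9 (-2.77). Vav1 fell by 0.88 on the log2 scale, Fcer1g, an adaptor found in myeloid cells too, rose by 0.52 (adjusted p = 0.00168 by limma), and Plcg1 gave 0.09 (adjusted p = 0.444).

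Of 13 listed transcription factors 9 were lower and 1 higher (median -1.21). Ikzf3 (Aiolos) fell from 4654 ± 534.9 to 279.8 ± 119.3 (-4.14, limma adjusted p = 4.53e-07) and Tox2 from 172.3 to 19.8 in mean (-3.16), and Irf2 by 0.50 on the log2 scale. Nfil3, which natural killer cell development requires and which myeloid cells also express, rose from 52.4 ± 9.65 to 170 ± 67.1 (1.61, limma adjusted p = 8.15e-04). Zeb2, which acts beside T-bet in mature killer cells, was at 2456 ± 410.0 and 2531 ± 610.4 (0.01, adjusted p = 0.976 by limma).

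Every listed gene of the cytokine pathways had a negative log2 fold change, and 10 of 11 passed (median -2.34). Il12a, a subunit of interleukin 12, was at 133.7 ± 7.38 in mice and had 0 to 3 reads in each NM-R (limma adjusted p = 1.68e-07). Il2ra fell by 3.58, Jak1 by 0.91 and Il12b by 0.77 on the log2 scale, the last with an adjusted p of 0.0251 by limma that was lost without mouse 1 (0.11) and without mouse 3 (0.081). By cohort, Il12b passed in ssNM-Rs (-0.78, adjusted p = 0.0434 by limma) but not in lsNM-Rs (-0.75, adjusted p = 0.0516 by limma).

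All 6 listed chemokine and homing genes were lower (median -3.0). Ccr3, a receptor of Ccl5 carried mainly by eosinophils and basophils, fell from 1368 ± 220.0 to 23.1 ± 14.7 (-6.14, limma adjusted p = 6.40e-06), and Cxcr3, a homing receptor that T-bet is known to induce, from 439.1 ± 53.8 to 24.7 ± 8.73 (-4.14). Cx3cr1, found on mature killer cells and monocytes, fell by 2.73 on the log2 scale.

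On the target side, 6 of 11 listed genes were lower and 4 higher (median -0.94), beside 38.8% and 39.7% of all genes. Nlrc5, the activator of class I antigen presentation, fell from 3270 ± 279.0 to 193.8 ± 67.3 (-4.15, limma adjusted p = 1.70e-07) and the peptide loading factor Tapbp from 4674 ± 349.0 to 644.0 ± 77.2 (-2.86). Apex1, a granzyme A substrate of DNA repair, rose from 471.6 ± 47.4 to 1567 ± 133.2 (1.73), and the death receptor Fas by 0.77 on the log2 scale. Nectin2 rose by 0.52 (adjusted p = 0.0184 by limma, and 0.0645 and 0.059 without mouse 1 or mouse 3).

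The genes whose values over the 9 spleens were most like those of each member were ranked by the root mean square difference of centred log2 values among the 11483 genes that averaged 10 normalized counts or more. Among genes with a symbol, nearest to Nkg7 was Tox2 (difference 0.167), nearest to Gzma was Sh2d2a (0.232), which encodes a T cell adaptor, and nearest to Prf1 was Tnni2 (0.150), a muscle troponin gene. The named genes nearest to Eomes were Fcrl1 (0.232), a B cell receptor gene, and Cxcr3 (0.241). Nearest to Ccl5 was Ffar1 (0.400) and nearest to Tbx21 was Tmem132c (0.277). A profile over 9 spleens is dominated by the difference between the species, and the list holds genes of B cells and muscle beside those of lymphocytes.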

How the data were processed

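Total spleen RNA was sequenced from 3 mice, 3 ssNM-Rs and 3 lsNM-Rs. The authors aligned mouse reads to mm9 and NM-R reads to the NM-R genome with STAR 2.5.3a and counted them per gene with HTSeq 0.10.0. They named NM-R genes by their mouse homologues with biomaRt to merge the species. The deposited counts were normalized with DESeq2 size factors (a signal value per gene, not per length). The labels and the study's methods name different kits and sequencers, and whether reads were counted by strand is not given in the sources used here. Every deposited value was a whole multiple of 1 step per library (tolerance 0.01; 100% of values), so reads were recovered for count-based alternatives.

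The main test was limma 3.58.1 in R 4.3.3 on log2(value + 1) of all 9 spleens, with a mean per group, a trended prior and Benjamini-Hochberg adjustment over 12946 genes (threshold 0.05); fold changes on this scale understate those of low genes. Contrasts were ssNM-R, lsNM-R and their mean against mouse, and lsNM-R against ssNM-R. edgeR 4.0.16 (TMM, quasi-likelihood), DESeq2 1.42.0, other pseudocounts (0.5 and 5), a filter at a mean of 10, other scalings, a depth covariate, a replicate block and leaving out each spleen were alternatives. Scripts were tested on simulated data. Within-spleen differences of log2 values used exact permutation tests. Promoters were read from NCBIM37 (mm9) with GENCODE vM1; no NM-R genome was used here.

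Named related genes were, per list, the 2 highest and 2 lowest called genes averaging 20 or more in the species where they were higher, and those against their list's direction; in the release machinery Unc13d, Stxbp2 and Lyst, and in granule contents Ifng, were added after their values were seen. Some genes that the rule names are not reported here. The 6 genes and all lists were chosen with earlier results of these data known.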

Additional observations from a re-analysis of the deposited data

Results flagged for a closer look

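No value of the 6 cytotoxic genes stood apart among the NM-R spleens. Of 76 genes examined over the 6 NM-Rs, 6 related or marker genes had 1 spleen whose gap to its nearest neighbour exceeded Dixon's 95% critical share of the whole range, which chance does in about 1 in 20 groups. In lsNM-R 1, Ccr9 was at 74.9 normalized counts (the others 16.4 to 34.2), Cd28 at 50.8 (14.5 to 27.0) and Pax5 at 79.1 (19.1 to 37.5), so a chemokine receptor, a T cell and a B cell gene were all high in this spleen. In ssNM-R 3, the spleen highest for 4 of the 6 cytotoxic genes, Cxcr3 was at 42.0 (17.8 to 24.0) and Tcf4 at 703 (447 to 541). In ssNM-R 6, Zeb2 was low, at 1310 (2620 to 2930).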

How the results depend on the processing

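All 6 cytotoxic genes stayed lower and past the threshold in each comparison with mice, and 0 of them passed between the NM-R cohorts, under every alternative run. The log2 fold change of Ccl5 in NM-Rs ranged from -6.36 to -5.62 and that of Prf1 from -2.18 to -1.88. Related genes past the threshold numbered 65 to 72. The labels number spleens across groups and the numbers do not pair animals (deviations of same-numbered spleens correlated at 0.0101, -0.00453 and 0.000765). In the replicate block the spleens numbered 4, 5 and 6 had no partner, so lsNM-Rs entered it through lsNM-R 1 alone. In NM-Rs against mice the block made the log2 fold changes smaller for Il12b (-0.582, against -0.77 without it) and Nectin2 (0.296, against 0.52). Scaling to the same upper quartile moved the median of all genes from 0.01 to 0.10 (log2).

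Values near 0 changed sign. Zeb2 in NM-Rs against mice was -0.0458 with equal totals and from -0.106 to 0.187 without 1 spleen. Between the NM-R cohorts, the replicate block gave 1.63 for Gzma (0.19 without it), the largest move among the 6 genes. It gave 0.49 for Nkg7, 0.51 for Ccl5 and 0.26 for Eomes. In that block the lsNM-R side was lsNM-R 1 less mouse 1 alone, and mouse 1, at 476.6 for Gzma, lay below the other mice. The depth covariate gave 0.21 for Ccl5. Without 1 spleen, Nkg7 ranged from -0.467 to 0.198, Gzma from -0.166 to 0.485, Ccl5 from -0.369 to 0.517, Prf1 from -0.183 to 0.407 and Eomes from -0.443 to 0.127. Why these values moved outside the replicate block was not tested. Tbx21 between the cohorts ranged from -1.30 to -0.28. Depth limits Eomes most, with 9 to 24 reads in each NM-R.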

Other observations

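Age was set beside the 6 genes and Cd3e over the 6 NM-Rs after their values were seen. Pearson's r with age in months was -0.925 for Gzma (exact permutation p = 0.0139, adjusted p = 0.0972 over the 7 genes; Spearman's rho -0.812, p = 0.0722) and -0.87 for Nkg7 (p = 0.0361, adjusted p = 0.126, exact permutation; rho -0.638, p = 0.20), and no gene passed after adjustment. Without ssNM-R 2 and lsNM-R 4, the oldest animals, r was -0.502 for Gzma, -0.14 for Cd3e and -0.0553 for Prf1. It was 0.423 for Nkg7, 0.523 for Tbx21, 0.905 for Ccl5 and 0.963 for Eomes. The animals left were aged 23 to 26 months, too narrow a span to tell whether the relations hold without those 2 spleens. lsNM-R 4 is also the female.

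Runx3, a factor of cytotoxic T cells that did not pass between species (limma adjusted p = 0.0898), was uneven among NM-Rs: ssNM-R 6 and lsNM-R 5 gave 1202 and 1237 normalized counts, within or just above the 1108 to 1218 of the mice, while the other 4 NM-Rs gave 264.4 to 645.5.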
